A study of Mus musculus with 4 samples.

Results

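The genes described here encode antiviral effectors, the proteins with which a cell acts against viruses after it has received interferon. They form a list of 45 genes named for their known functions. The list and its groups were chosen with earlier results of these data known. Of the 45, 41 had a probe set annotated to that gene alone, out of 19938 genes so measured. The other 4, Isg15, Oas1g, Ifi44 and Phf11b, had no such probe set and have no value here. Bone marrow cells were taken from C57BL/6N mice 8 h after 1 intraperitoneal injection of 50 µg lipopolysaccharide (LPS), a glycolipid of the Gram-negative outer membrane mixed from Escherichia coli and Salmonella minnesota, or after 1 injection of phosphate-buffered saline (PBS). LPS replicates 1 and 2 and PBS replicates 1 and 3, numbered as in the titles, were each hybridised to 1 GeneChip Mouse Gene 1.0 ST array. The labels give no age, sex or number of mice per sample and no genetic change in either group. They do not say whether a replicate was 1 mouse, so the spread between these samples may be partly technical. The p-values below rest on that spread, drawn for each gene toward the spread typical of all genes.

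Type I interferon binds a receptor of the IFNAR1 and IFNAR2 chains, whose kinases activate transcription factors. These bind the interferon-stimulated response element in promoters. The induced proteins act at different steps of infection. Some sense viral RNA, some degrade it or block its translation, some modify proteins with the ubiquitin-like ISG15, and some stop virus at the membrane on the way in or out. In marrow, LPS is sensed through TLR4, one arm of which leads to interferon beta.

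The promoters of the list are shown first, because the response element described above lies in promoters. Of the 45 genes, 37 had at least 1 promoter window in the RefSeq set for GRCm38.p6, each window reaching from 250 bases before to 50 bases after an annotated start. The core of the element, read here as GAAA, any 2 bases and GAAA again, was searched on both strands, overlapping matches included. It stood in the windows of 17 of the 37 genes (45.9%), against 1079 of 27025 genes in the whole set (3.99%, or 3.44% of all 32851 windows). The core TTCNNNGAA of the gamma-activated site, which the same bases can match in part, stood in 10 of the 37 genes (27.0%), against 9.55% of all genes and 8.30% of all windows. A match is a description of the letters and not a shown binding site.

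The following stretches hold the 170 bases up to the annotated start, 5′ to 3′ on the gene's strand, with matches of the response element core on either strand in capitals. The first 5 belong to genes of 4 functional groups that rose after LPS, Isg15 has no value of its own, and Oas1c and Ifitm2 are genes that carry the core but did not pass the test.
Ifit1, chr19:34640719-34640888, strand plus: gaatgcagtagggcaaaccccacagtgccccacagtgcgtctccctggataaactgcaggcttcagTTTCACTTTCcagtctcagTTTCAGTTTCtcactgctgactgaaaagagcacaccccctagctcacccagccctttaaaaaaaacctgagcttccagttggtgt
Ifit3, chr19:34583359-34583528, strand plus: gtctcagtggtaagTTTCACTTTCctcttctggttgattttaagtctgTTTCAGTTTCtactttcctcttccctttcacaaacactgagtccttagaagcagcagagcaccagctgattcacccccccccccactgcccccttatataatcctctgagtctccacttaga
Ddx60, chr8:61927917-61928086, strand plus: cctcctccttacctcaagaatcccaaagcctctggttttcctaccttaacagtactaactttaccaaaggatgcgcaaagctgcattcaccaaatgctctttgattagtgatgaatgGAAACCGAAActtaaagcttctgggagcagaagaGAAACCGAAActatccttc
Oas1a, chr5:120907526-120907695, strand minus: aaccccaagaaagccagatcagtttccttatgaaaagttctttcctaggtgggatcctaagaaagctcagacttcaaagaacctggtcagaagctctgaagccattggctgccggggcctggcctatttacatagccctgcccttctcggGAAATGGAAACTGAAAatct
Bst2, chr8:71537473-71537642, strand minus: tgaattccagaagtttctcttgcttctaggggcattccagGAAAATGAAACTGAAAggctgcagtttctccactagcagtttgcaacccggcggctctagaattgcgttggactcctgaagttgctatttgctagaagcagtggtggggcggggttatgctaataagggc
Isg15, chr4:156200819-156200988, strand minus: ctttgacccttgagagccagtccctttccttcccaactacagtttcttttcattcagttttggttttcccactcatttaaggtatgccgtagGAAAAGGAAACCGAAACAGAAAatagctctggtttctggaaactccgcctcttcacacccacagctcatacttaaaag
Oas1c, chr5:120812515-120812684, strand minus: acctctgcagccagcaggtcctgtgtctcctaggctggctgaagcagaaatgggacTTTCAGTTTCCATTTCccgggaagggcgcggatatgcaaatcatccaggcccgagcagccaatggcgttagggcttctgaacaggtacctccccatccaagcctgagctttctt
Ifitm2, chr7:140955962-140956131, strand minus: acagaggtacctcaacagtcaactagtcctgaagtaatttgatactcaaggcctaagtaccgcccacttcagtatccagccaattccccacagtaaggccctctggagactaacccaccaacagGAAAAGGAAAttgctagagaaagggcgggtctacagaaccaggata

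In Ifit1 both matches were on the minus strand, the first beginning 104 bases before the start, and in Ifit3 both were also on the minus strand, beginning at 156 bases. Isg15 had 3 overlapping matches in 1 run, and Oas1a, Bst2 and Oas1c had 2 overlapping matches each. Of the 27 matches in the list, 22 began before the start and 5 after it. By function, the core was found in 4 of 5 RNA sensing genes with a window, 4 of 6 OAS genes, 2 of 3 IFIT genes, 1 of 4 genes of the ISG15 pathway, 3 of 5 genes of entry and release, 1 of 4 genes of the Mx, nucleotide and RNA enzyme group, and 2 of 10 of the nuclear and other proteins. Among genes with a window, the core was found in 12 of 27 that rose (44.4%) and in 2 of 6 that did not pass (33.3%). No window was available for Dhx58, Zbp1, Oas1b, Oas2, Usp18, Mx1, Mx2 and Rtp4. All 8 of these rose, so only the share of genes that rose lacks members. Ifitm3 rose and Ifitm2 did not pass, and both held matches.

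**Figure D1:**
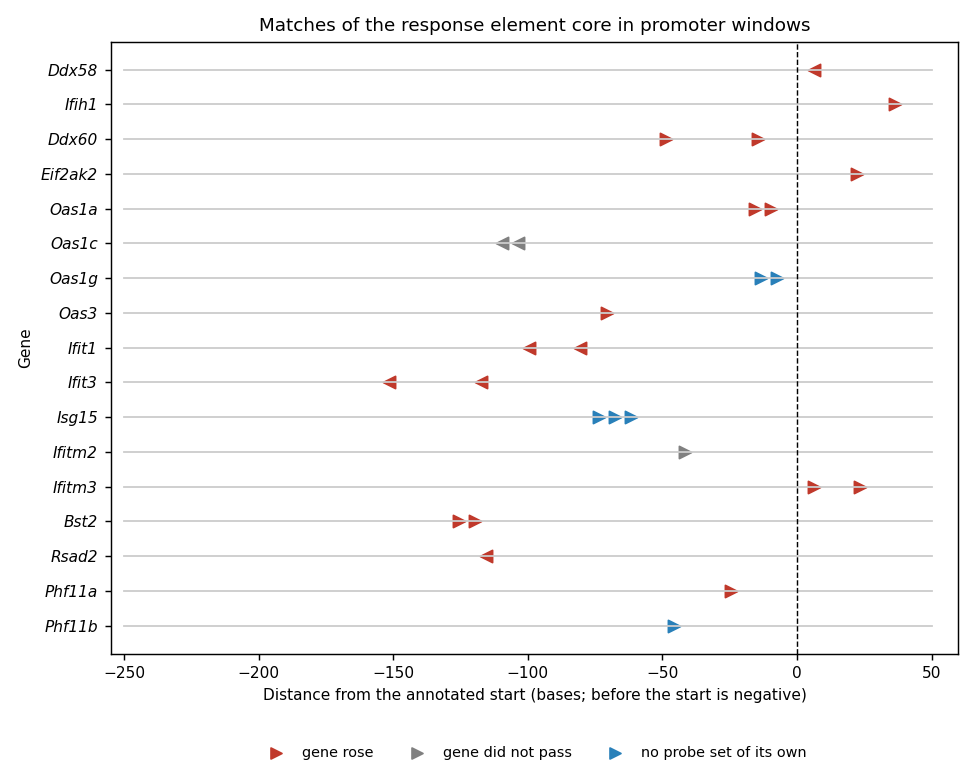
Position of each match of the response element core relative to the annotated start (horizontal axis, bases) for the 17 genes with a match (vertical axis). Triangles point right for the plus strand and left for the minus strand, grey lines show the searched window, and colour gives the result after LPS; 22 of 27 matches began before the start.

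Antiviral genes of every functional group rose after LPS. Of 41 measured genes 35 rose and 0 fell, against 2.39% of all 19938 genes that rose and 1.27% that fell. The median log2 fold change of the 41 was 1.31, a 2.48-fold rise, while the median over all genes was -0.01. In samples of mixed marrow cells, more or fewer cells of a type and more or less RNA per cell cannot be told apart. At least 2-fold rises were seen in 26 of the 41 (0.848% of all genes), and 20 of them were among the 100 largest rises of the whole array. In 38 of the 41 both LPS values exceeded both PBS values, as in 20.4% of all genes, and in 0 both were smaller, as in 24.5% of all genes. The test was limma on log2 values over all genes, and the threshold was 0.05 for the p adjusted by Benjamini-Hochberg. The rises that passed ran from 0.56 to 2.71 log2 (1.47-fold to 6.53-fold), with adjusted p-values from 1.08e-05 to 0.0314. At a threshold of 0.01, 33 of the 41 rose, against 1.43% of all genes, and with all probe sets in the fit 31 rose, against 0.998% of them. All 35 rose with an intensity trend and robust variance (2.52% of all genes), with means over probe sets (2.38%), without the dimmest genes (3.22%) and with arrays centred on their medians (2.54%). With 2 arrays a group, an exact permutation test of a single gene cannot give a two-sided p below 0.333. An unmoderated linear model called 0 genes after adjustment (0.00%); at an unadjusted p under 0.05 it counted all 35 of these genes and 2185 of all genes (11.0%).

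**Figure D2:**
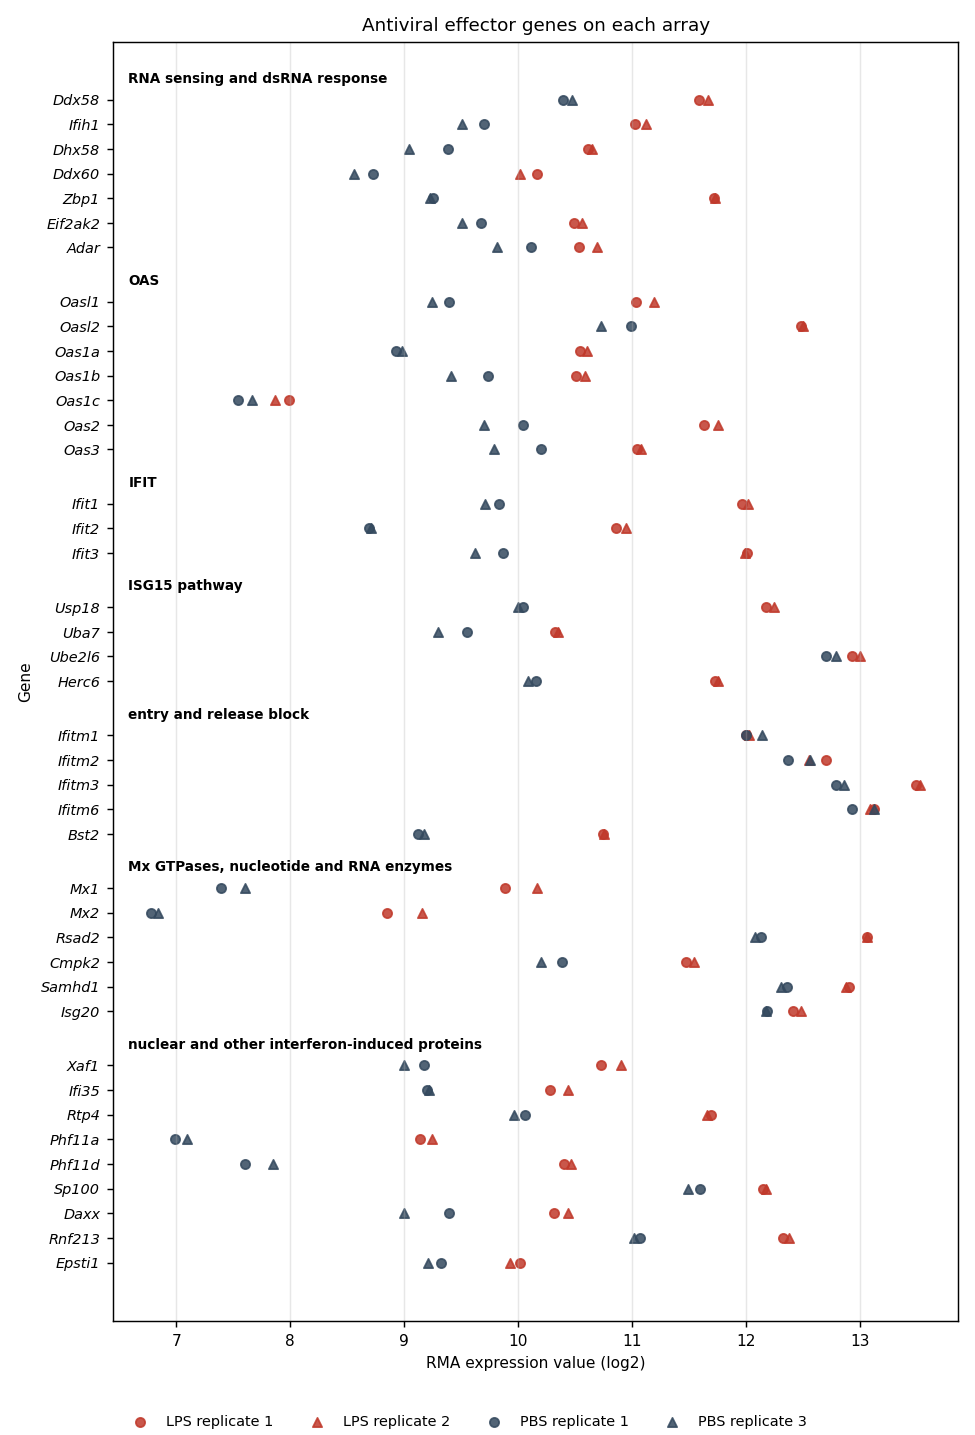
RMA expression value (log2, horizontal axis) of the 41 genes on each array, by function; red symbols are the LPS arrays and dark symbols the PBS arrays, with circles and triangles for the replicates. The red symbols lie to the right of the dark ones in 38 genes, and the groups overlap in Ifitm1, Ifitm2 and Ifitm6.

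The 3 IFIT genes changed most as a group and nearly alike. IFIT proteins bind viral RNA whose ends lack the cell's own cap marks and keep it from being translated. Ifit1 had log2 values of 11.96 and 12.02 in LPS replicates 1 and 2, against 9.83 and 9.71 in PBS replicates 1 and 3. Ifit2 had 10.86 and 10.95 in LPS samples, against 8.69 and 8.71 in PBS samples. Ifit3 had 12.00 and 11.99 in LPS samples, against 9.87 and 9.62 in PBS samples. The lowest LPS value of each gene lay more than 2 log2 units above its highest PBS value. The log2 fold changes were 2.22 for Ifit1 (SE 0.0922, 95% interval 2.00 to 2.43, adjusted p = 2.23e-05), 2.20 for Ifit2 (SE 0.0887, adjusted p = 1.93e-05) and 2.26 for Ifit3 (SE 0.107, adjusted p = 3.86e-05). These are rises of 4.66-fold, 4.61-fold and 4.77-fold, and the 3 intervals overlap.

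All 7 genes of RNA sensing and the response to double-stranded RNA rose, with a median of 1.41 log2. Zbp1, a sensor of Z-form nucleic acid that can start necroptosis, changed most. It had 11.72 and 11.73 in LPS samples, against 9.25 and 9.22 in PBS samples. Its replicates differed by at most 0.03 log2 and its change was 2.48 (SE 0.086, adjusted p = 1.08e-05), a 5.58-fold rise. The 3 RIG-I-like receptors changed by smaller and similar amounts. Ddx58, which encodes RIG-I, had 11.59 and 11.66 in LPS samples, against 10.39 and 10.47 in PBS samples, a change of 1.19 (SE 0.0904, adjusted p = 0.000313). Ifih1, which encodes MDA5, had 11.03 and 11.12 in LPS samples, against 9.70 and 9.50 in PBS samples, a change of 1.47 (SE 0.102, adjusted p = 0.000206). Dhx58, which encodes the regulator LGP2, had 10.61 and 10.64 in LPS samples, against 9.39 and 9.04 in PBS samples, a change of 1.41 (SE 0.124, adjusted p = 0.000694). In each the LPS arrays stood at least 1.11 log2 above the higher PBS array. The related helicase gene Ddx60 rose by 1.45.

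The remaining RNA-responsive genes rose less. Eif2ak2 encodes PKR, the kinase that halts translation on binding double-stranded RNA. It had 10.49 and 10.56 in LPS samples, against 9.67 and 9.50 in PBS samples, a change of 0.93 (SE 0.0978, adjusted p = 0.00182). Adar encodes the adenosine deaminase that edits double-stranded RNA and keeps MDA5 and PKR from responding to the cell's own transcripts. It had 10.53 and 10.70 in LPS samples, against 10.11 and 9.82 in PBS samples, so the groups were separate by 0.42 log2 and the PBS arrays differed by 0.30. Its change of 0.65 (SE 0.122, 95% interval 0.36 to 0.93, adjusted p = 0.0314) was no longer past the threshold once LPS replicate 2 was left out (0.57, adjusted p = 0.0911) or all 35556 probe sets were fitted (adjusted p = 0.144).

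Oligoadenylate synthetases make short oligoadenylates on binding double-stranded RNA, which activate RNase L to cut viral and cellular RNA. Of 7 measured OAS genes 6 rose, with a median of 1.62 log2. Oas2 had 11.63 and 11.75 in LPS samples, against 10.04 and 9.70 in PBS samples, a change of 1.83 (SE 0.126, adjusted p = 0.000206). Oasl1, an OAS-like gene whose mouse protein restrains translation of Irf7 mRNA, had 11.03 and 11.19 in LPS samples, against 9.39 and 9.24 in PBS samples, a change of 1.79 (SE 0.102, adjusted p = 7.21e-05). The groups of both genes were separate by about 1.6 log2. Oasl2 rose by 1.63 and Oas1a by 1.62, while Oas3 rose by 1.06 (SE 0.138, adjusted p = 0.00526). Oas3 had the widest PBS pair of the list, at 10.20 and 9.78, against 11.04 and 11.07 in LPS samples, and did not pass with all probe sets in the fit (adjusted p = 0.0564).

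The OAS1 genes differed in size of change. Oas1b, known in mice as the flavivirus resistance gene and truncated in C57BL/6 mice, had 10.51 and 10.58 in LPS samples, against 9.74 and 9.41 in PBS samples. Its change was 0.97 (SE 0.122, 95% interval 0.69 to 1.26, adjusted p = 0.00466), below the interval of Oas1a (1.41 to 1.83). Oas1c had 7.99 and 7.86 in LPS samples, against 7.54 and 7.67 in PBS samples. The groups of Oas1c did not overlap, but its change of 0.32 (95% interval 0.10 to 0.55, adjusted p = 0.149) did not pass. OAS1 genes are close relatives, and a probe set of 1 may bind transcripts of another, so their values are uncertain as values of single genes.

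ISG15 is joined to proteins by an activating enzyme, a conjugating enzyme and a ligase, and removed by a protease. Of the 4 measured genes of this cycle 3 rose. The protease gene Usp18, whose protein also dampens IFNAR2, had 12.17 and 12.24 in LPS samples, against 10.04 and 10.00 in PBS samples. It rose by 2.18 log2 (SE 0.0883, adjusted p = 1.93e-05), a 4.55-fold change. The ligase gene Herc6, which serves ISG15 in mice, had 11.73 and 11.75 in LPS samples, against 10.16 and 10.09 in PBS samples, a rise of 1.62 (SE 0.0875, adjusted p = 5.71e-05). The activating enzyme gene Uba7 had 10.32 and 10.35 in LPS samples, against 9.55 and 9.29 in PBS samples, a rise of 0.91 (SE 0.109, adjusted p = 0.00349). Ube2l6, the conjugating enzyme gene, stood apart from these. It had 12.93 and 12.998 in LPS samples, against 12.70 and 12.78 in PBS samples, and its change of 0.22 (95% interval 0.01 to 0.43, adjusted p = 0.285) did not pass although the groups did not overlap. The intervals of Usp18 (1.98 to 2.39), Herc6 (1.41 to 1.82) and Uba7 (0.66 to 1.17) did not overlap each other or that of Ube2l6.

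The membrane proteins that block entry or release were the group with the fewest rises, 2 of 5, and a median of 0.16 log2 (0.07 when PBS replicate 1 was left out, 0.26 when PBS replicate 3 was and 0.09 when LPS replicate 1 was). IFITM proteins stop fusion of viral with endosomal membranes. Ifitm3 had 13.49 and 13.52 in LPS samples, against 12.79 and 12.86 in PBS samples, a rise of 0.69 (SE 0.0882, 95% interval 0.48 to 0.89, adjusted p = 0.00519). Ifitm1 had 12.00 and 12.02 in LPS samples, against 12.00 and 12.14 in PBS samples. Ifitm2 had 12.70 and 12.55 in LPS samples, against 12.36 and 12.56 in PBS samples. Ifitm6 had 13.12 and 13.09 in LPS samples, against 12.93 and 13.12 in PBS samples. In these 3 the groups overlapped, and their changes of -0.06 (95% interval -0.27 to 0.16), 0.16 (-0.09 to 0.41) and 0.08 (-0.15 to 0.31) had adjusted p-values of 0.865, 0.537 and 0.793. Only the interval of Ifitm3 lay above 0 among the 4 IFITM genes, and it did not overlap those of the other 3. The 3 probe sets of Ifitm2 gave changes of 0.15 to 0.16 and the 2 of Ifitm1 both gave -0.06, while cross-binding within the family cannot be told apart here. The 4 IFITM genes were bright, with PBS means of 12.07 to 13.02, against 9.15 for Bst2. Ube2l6 (12.74), Samhd1 (12.33), Isg20 (12.18) and Rsad2 (12.10) were also bright and changed by less than 2-fold. Oas1c, which did not pass either, was dimmer at 7.60. Whether brightness limits the size of a change on these arrays was not tested.

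Bst2 encodes tetherin, which holds budding virus at the cell surface. It had 10.74 and 10.75 in LPS samples, against 9.12 and 9.17 in PBS samples, and rose by 1.60 (SE 0.0866, adjusted p = 5.71e-05), a 3.03-fold change. Bst2 protein is also a surface marker of mouse plasmacytoid dendritic cells. Of 6 measured marker genes of these cells 0 passed, with a median of -0.01, and their mean log2 level was 9.45 and 9.46 in LPS samples and 9.40 and 9.54 in PBS samples. Single markers went both ways. Siglech had 9.55 and 9.26 in LPS samples, against 9.65 and 9.80 in PBS samples, a difference of -0.31. Ccr9 had 9.07 and 8.80 in LPS samples, against 8.47 and 8.71 in PBS samples, a difference of 0.34.

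**Figure D3:**
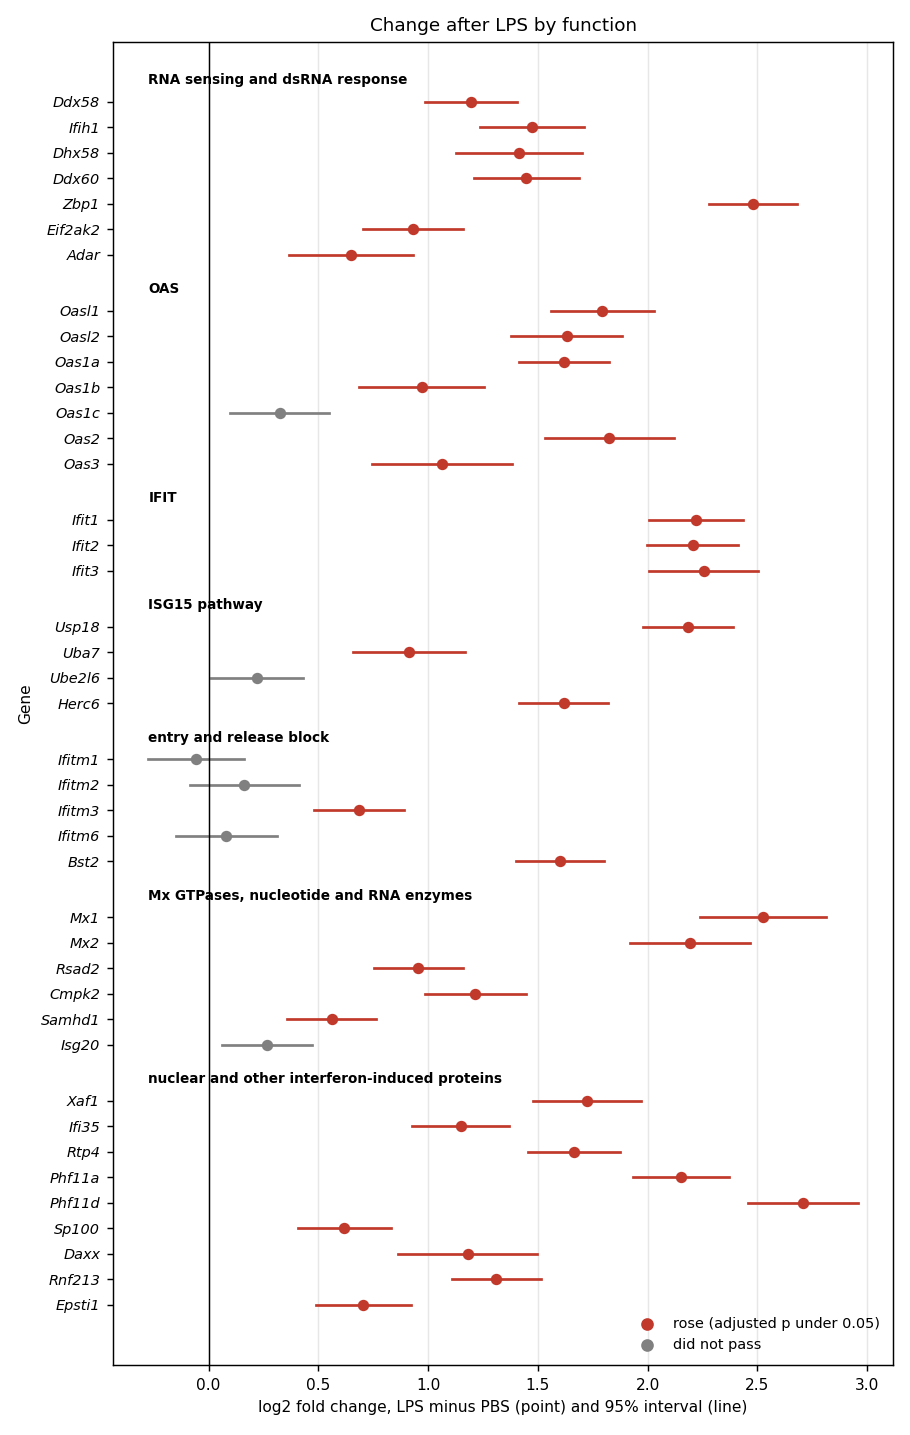
Log2 fold change, LPS minus PBS (horizontal axis), of the 41 genes by function; points are limma estimates from 2 arrays a group and lines their 95% intervals, red where the gene rose and grey where it did not pass. The IFIT genes, Zbp1, Usp18, Mx1, Mx2, Phf11a and Phf11d lie above 2, and 3 of the 4 IFITM genes lie near 0.

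Mx proteins are dynamin-like GTPases that trap viral nucleocapsids. Mx1 had 9.88 and 10.16 in LPS samples, against 7.39 and 7.60 in PBS samples, a rise of 2.52 (SE 0.124, adjusted p = 4.28e-05) or 5.76-fold. Mx2 had 8.85 and 9.16 in LPS samples, against 6.78 and 6.84 in PBS samples, a rise of 2.19 (SE 0.117, adjusted p = 5.71e-05). In both genes LPS replicate 2 was higher than LPS replicate 1 by 0.28 to 0.31, the widest LPS pairs of the list, and all LPS values were far above the PBS values. C57BL/6 mice are known to carry Mx1 and Mx2 alleles that make no functional protein, so these values are of RNA only.

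Genes that act on nucleotides or RNA rose less. Rsad2 encodes viperin, which makes a chain-terminating nucleotide, and Cmpk2, its neighbour in the genome, encodes a mitochondrial nucleotide kinase. Rsad2 had 13.06 and 13.06 in LPS samples, against 12.13 and 12.08 in PBS samples, a rise of 0.95 (SE 0.0867, adjusted p = 0.000856). Cmpk2 had 11.47 and 11.54 in LPS samples, against 10.38 and 10.20 in PBS samples, a rise of 1.22 (SE 0.0994, adjusted p = 0.000486). The intervals of this pair overlapped (0.75 to 1.16 and 0.98 to 1.45). Samhd1 encodes the enzyme that depletes deoxynucleotides. It had 12.90 and 12.88 in LPS samples, against 12.36 and 12.30 in PBS samples, a rise of 0.56 (SE 0.087, adjusted p = 0.0135) that missed the threshold once LPS replicate 1 was left out (0.55, adjusted p = 0.0501) and with all probe sets in the fit (adjusted p = 0.067). The exonuclease gene Isg20 had 12.41 and 12.48 in LPS samples, against 12.18 and 12.17 in PBS samples, and its 0.27 (95% interval 0.06 to 0.47, adjusted p = 0.183) did not pass.

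All 9 measured genes of nuclear and other interferon-induced proteins rose, with a median of 1.31 log2. The PHD finger gene Phf11d had the largest rise of the whole list. It had 10.40 and 10.46 in LPS samples, against 7.60 and 7.85 in PBS samples, a change of 2.71 (SE 0.108, adjusted p = 1.93e-05) or 6.53-fold, which ranked 16 among all genes. Its relative Phf11a had 9.14 and 9.24 in LPS samples, against 6.99 and 7.10 in PBS samples, a change of 2.15 (SE 0.0938, adjusted p = 2.49e-05). Phf11 genes are close relatives, and cross-binding of their probes was not tested. Xaf1, named for its binding to the apoptosis inhibitor XIAP, rose by 1.72, and Rtp4, a chaperone of membrane receptors, by 1.66. The large ubiquitin ligase gene Rnf213 rose by 1.31, and its 2 probe sets gave 1.31 and 1.29. Ifi35 rose by 1.15 and Epsti1 by 0.70.

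Sp100 and Daxx encode proteins of PML nuclear bodies, which silence incoming viral genomes. Daxx had 10.31 and 10.43 in LPS samples, against 9.39 and 9.0 in PBS samples, a rise of 1.18 (SE 0.135, adjusted p = 0.00292). Sp100 had 12.14 and 12.18 in LPS samples, against 11.60 and 11.49 in PBS samples, a rise of 0.62 (SE 0.0907, adjusted p = 0.00998) that did not pass with all probe sets in the fit (adjusted p = 0.0605). The 95% interval of Daxx, 0.86 to 1.49, lay just above that of Sp100, 0.41 to 0.83.

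Within the groups the arrays differed slightly. LPS replicate 2 was higher than LPS replicate 1 in 33 of the 41 genes, by a median of 0.06 log2, while 49.7% of all genes were higher in LPS replicate 2. PBS replicate 3 was higher than PBS replicate 1 in 15 of the 41 and lower in 26, while 46.0% of all genes were higher in PBS replicate 3. The median difference, PBS replicate 3 minus PBS replicate 1, was -0.05 in the list and -0.02 over all genes. The 5 genes of entry and release ran the other way in PBS, all higher in replicate 3. The OAS genes had the widest PBS pairs, with a median gap of 0.26, against 0.13 over the list and 0.11 over all genes. The smallest separation between groups among the 35 genes that rose, 0.42 log2 in Adar, was no larger than the widest PBS pair, 0.42 in Oas3.

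**Figure D4:**
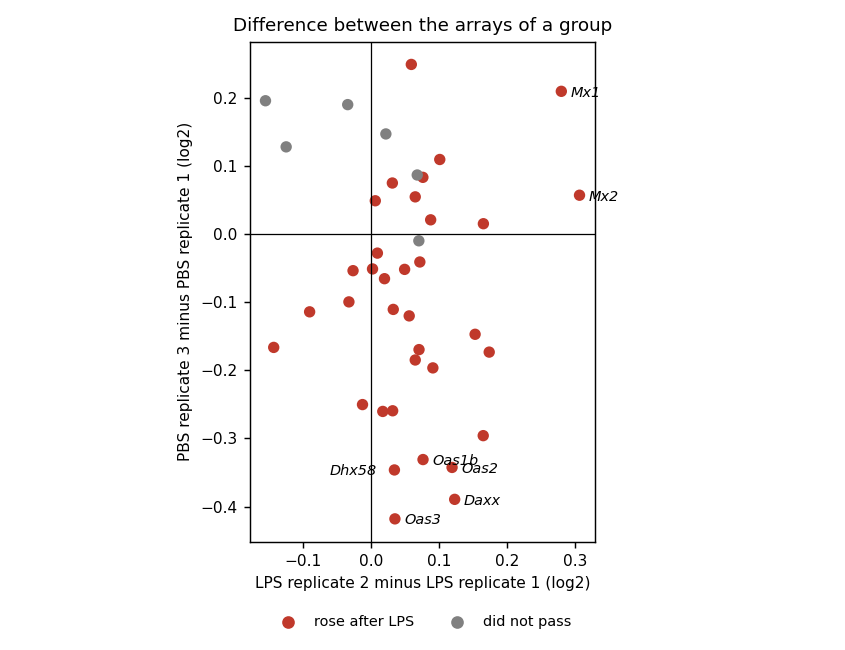
Difference between the LPS arrays (horizontal axis, log2) against the difference between the PBS arrays (vertical axis, log2) for the 41 genes; red points rose after LPS and grey points did not pass. Mx1 and Mx2 differed most between the LPS arrays, and Oas3, Daxx, Dhx58, Oas2 and Oas1b most between the PBS arrays.

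Of 39 other measured genes of the interferon pathway 9 rose and 0 fell, against 2.39% of all genes that rose and 1.27% that fell, and their median was 0.07. None of the 8 ligand and 6 receptor genes passed. Ifnb1, which encodes interferon beta, had 6.02 and 6.04 in LPS samples, against 5.84 and 5.96 in PBS samples, a difference of 0.13 (95% interval -0.08 to 0.34, adjusted p = 0.578). Its values lay under the lower quartile of all genes on every array (6.66 to 6.72), as did the mean PBS values of Ifna4, Ifna11 and Ifna12, and no test of signal above background was made. Ifng, which encodes interferon gamma, had 7.51 and 7.48 in LPS samples, against 7.32 and 7.24 in PBS samples, a difference of 0.21 (adjusted p = 0.297). Differences of Ifna2, Ifna4, Ifna5, Ifna11 and Ifna12 lay between -0.17 and 0.08 and that of Ifnl2 was 0.02. These ligands were read at 8 h only.

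Receptor genes had small differences as well. Ifnar1 had 10.55 and 10.48 in LPS samples, against 10.50 and 10.43 in PBS samples, and Ifnar2 had 11.51 and 11.44 in LPS samples, against 11.29 and 11.32 in PBS samples. Their differences were 0.05 (95% interval -0.16 to 0.26) and 0.17 (-0.03 to 0.37). Ifngr1 (-0.18), Ifngr2 (0.20) and Il10rb (0.02) did not pass either. Ifnlr1, a receptor chain for lambda interferons, had -0.47 (adjusted p = 0.149), and fell without PBS replicate 3 (-0.69, adjusted p = 0.00501).

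The factors that carry the signal to the promoters were higher in LPS samples. Irf7, the factor that amplifies interferon alpha production, had 12.16 and 12.18 in LPS samples, against 10.42 and 10.23 in PBS samples, a rise of 1.85 (SE 0.0992, adjusted p = 5.71e-05). Stat2 had 10.99 and 11.11 in LPS samples, against 9.82 and 9.60 in PBS samples, a rise of 1.33 (SE 0.107, adjusted p = 0.00043). Irf9 had 10.86 and 10.96 in LPS samples, against 10.31 and 10.39 in PBS samples, a rise of 0.56 (adjusted p = 0.0167) that missed the threshold once LPS replicate 2 was left out (0.51, adjusted p = 0.0807) and with all probe sets in the fit (adjusted p = 0.082). Irf1, a factor also induced by interferon gamma, rose by 1.30, or by 0.71 as the mean of its probe sets (adjusted p = 0.00430). Of the 10 measured sensors, adaptors and kinases, Tlr3, a receptor for double-stranded RNA, rose by 1.27, Ikbke, an IRF kinase gene, by 0.86, and Mb21d1, which encodes the DNA sensor cGAS, by 0.70. Mb21d1 did not pass with all probe sets in the fit (adjusted p = 0.0614). The other 7 did not pass: the LPS receptor gene Tlr4 had -0.01, its adaptor genes Ticam1 and Ticam2 0.06 and -0.19, the RIG-I adaptor gene Mavs -0.17, the kinase gene Tbk1 0.19 and the cGAS adaptor gene Tmem173 0.29. Trim25, a ubiquitin ligase gene, had 0.47 (adjusted p = 0.0592), and passed with an intensity trend and robust variance (adjusted p = 0.0461) and once PBS replicate 1 was left out (0.59, adjusted p = 0.0146). The feedback inhibitor genes Socs1 and Socs3 rose by 0.85 and 0.92, and Socs3 had 0.40 as the mean of its probe sets (adjusted p = 0.0521).

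**Figure D5:**
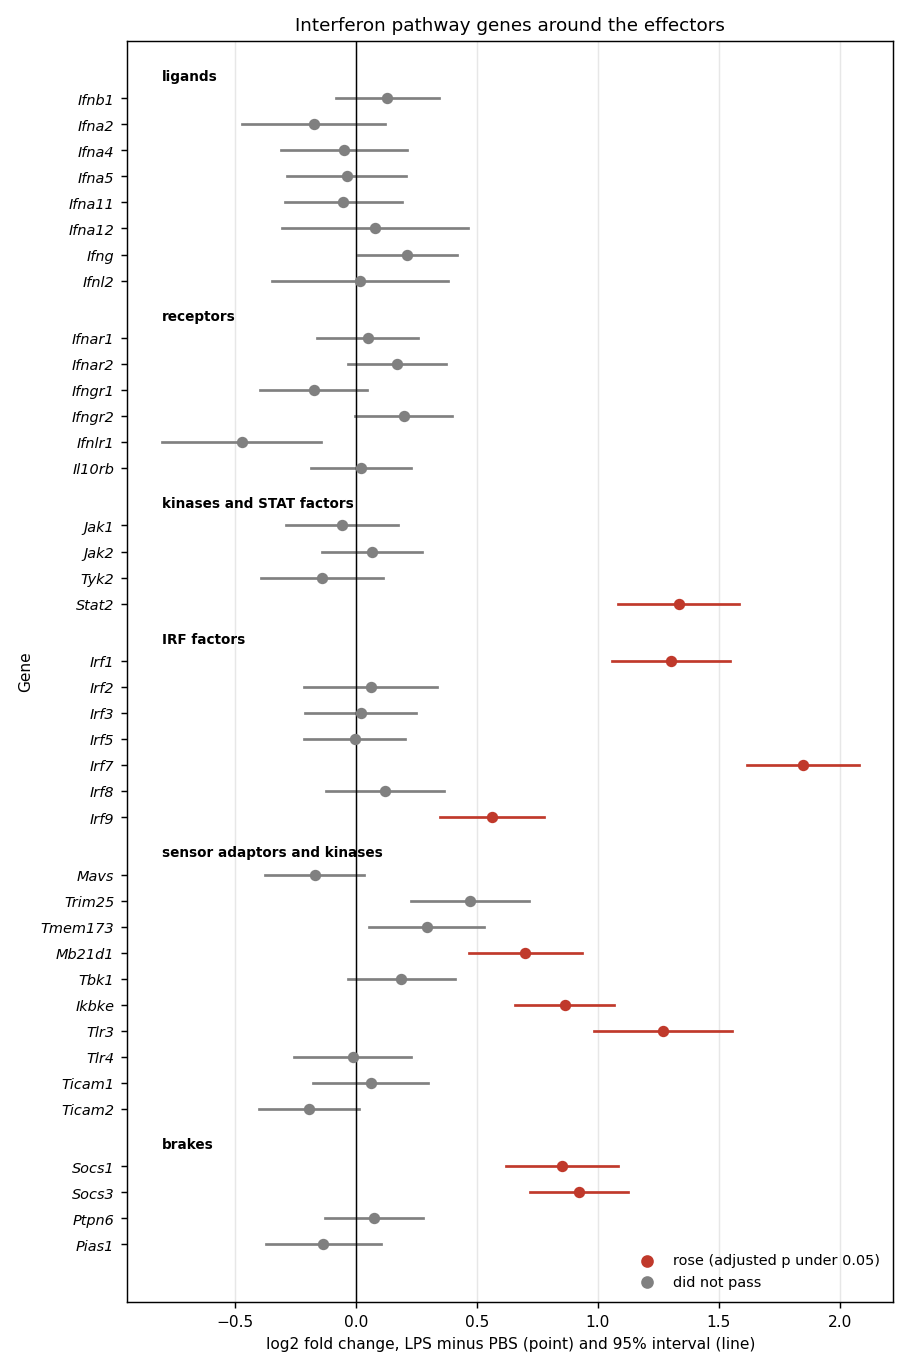
Log2 fold change, LPS minus PBS (horizontal axis), of 39 pathway genes by role; points are limma estimates and lines their 95% intervals, red where the gene rose and grey where it did not pass. The 9 red genes are Stat2, Irf1, Irf7, Irf9, Mb21d1, Ikbke, Tlr3, Socs1 and Socs3, and no ligand or receptor is among them.

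The samples carried the marks of marrow. Neutrophil precursor genes such as Elane stood at 12.58 to 12.96 on the 4 arrays, the megakaryocyte gene Ppbp at 13.85 to 13.91 and the erythroid gene Alas2 at 12.73 to 12.90. Of 62 measured marker genes of 9 cell classes, 3 rose and 3 fell, against 2.39% of all genes that rose and 1.27% that fell. Of 8 monocyte and macrophage markers, Fcgr1, itself interferon-inducible, rose by 1.57, Adgre1 rose by 0.56 and Mertk fell by 0.54, with a median of -0.06. The mean log2 level of this list was 10.31 and 10.19 in LPS samples and 10.07 and 10.13 in PBS samples. All 7 B-cell markers were lower in LPS replicate 1 than in LPS replicate 2, and their mean level was 10.35 and 10.74 in LPS samples and 10.74 and 10.72 in PBS samples. Means of the neutrophil markers were 12.86 and 12.73 in LPS samples and 13.01 and 12.93 in PBS samples, with 0 of 8 past the threshold. Elsewhere the natural killer gene Prf1 rose by 0.50, Klrd1 fell by 0.89 and the stromal gene Lepr fell by 0.59, and 0 of 8 T-cell, 5 erythroid and 4 megakaryocyte markers passed. The part of these shifts in the changes of the antiviral genes was not tested. With 1 array left out at a time, the number of antiviral genes that rose was 34 without LPS replicate 1 (1.93% of all genes), 34 without LPS replicate 2 (2.01%), and 35 without PBS replicate 1 (2.43%) or PBS replicate 3 (3.49%).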

How the data were processed

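RNA of bone marrow cells from 2 LPS and 2 PBS samples was measured on GeneChip Mouse Gene 1.0 ST arrays, 1 per sample. The authors deposited 1 log2 value per probe set and array, computed with RMA per the submitters' processing notes. The software version is not given in the sources used. RMA equalises the arrays, so only changes relative to all probe sets are seen. The log2 scale was read from the values (2.76 to 14.52). Medians over genes were 8.01 to 8.03 on the 4 arrays, and no arrays were identical. Across genes, the LPS arrays correlated at 0.997 and the PBS arrays at 0.995, while LPS and PBS arrays correlated at 0.988 to 0.990.

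Probe sets were named through the platform annotation: 21789 of 35556 named 1 gene, 1621 several and 12146 none here. Where a gene had several, its brightest probe set by mean value was taken, giving 19938 genes. LPS and PBS were compared with limma 3.58.1 in R 4.3.3 (lmFit, eBayes, two-sided, 2 residual and 5.59 prior degrees of freedom), Benjamini-Hochberg adjustment over all genes and no filter. The number of arrays limits the precision. The fit was tested on simulated data with known changes. Promoter sequences are those of RefSeq, GRCm38.p6. Figures were drawn with matplotlib 3.10.9.

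The genes described, their groups by function, the pathway list and the cell markers were chosen with earlier results of these data known. The text names every measured antiviral gene, each pathway gene that passed, and the ligands, receptors, sensors and adaptors. Alternatives were another variance model, no moderation, all probe sets in the fit, means over probe sets, a filter on low genes, median-centred arrays, a stricter threshold and leaving out each array.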

Additional observations from a re-analysis of the deposited data

Results flagged for a closer look

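Probe sets annotated to an antiviral gene together with another gene were outside the comparisons above. All 3 were higher on both LPS arrays than on both PBS arrays, as were 20.4% of all genes. Of the 3, 2 passed the test, against 0.998% of all probe sets that rose. The probe set shared by Isg15, the gene of the ubiquitin-like modifier, and the predicted gene Gm9706 had log2 values of 9.82 and 9.88 in LPS samples, against 7.81 and 7.74 in PBS samples. Its change was 2.07 (SE 0.0885, limma adjusted p = 0.00172 over all 35556 probe sets), a 4.20-fold difference. The probe set shared by Oas1a and Oas1g had 11.50 and 11.44 in LPS samples, against 9.75 and 9.69 in PBS samples. Its change was 1.75 (SE 0.0879, limma adjusted p = 0.0028), beside 1.62 for the probe set of Oas1a alone. Neither value can be given to 1 of its genes. The probe set shared by Sp100 and 4 other annotated genes had 11.02 and 11.04 in LPS samples, against 10.49 and 10.53 in PBS samples, and its change of 0.52 did not pass (limma adjusted p = 0.082).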

How the results depend on the processing

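Of the 35 antiviral genes that rose, 31 passed under all 10 alternatives other than the model without moderation, and no antiviral gene that passed changed direction. Adar and Samhd1 each lost the call under 3 alternatives, and Oas3 and Sp100 under 1. The 6 genes that did not pass stayed so under every alternative run. The count of rises was 31 with all probe sets in the fit and 33 at an adjusted p under 0.01. Without moderation, 0 antiviral genes, 0 pathway genes and 0 of all genes were called higher, and 0 of all genes lower, with 2185 genes at an unadjusted p under 0.05. Over all genes, 63 probe sets were lower with all probe sets in the fit, and 286 genes were higher and 58 lower at an adjusted p under 0.01, against 476 and 254. Leaving out 1 array gave 127 to 423 lower genes, the fewest without LPS replicate 2 and the most without PBS replicate 3. It also gave 385 to 696 higher genes, 0 to 1 lower pathway genes, and medians of 1.24 to 1.53 for RNA sensing and 1.18 to 1.35 for the ISG15 cycle. The cause of these differences was not tested. No paired analysis was possible because the groups share only 1 replicate number.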
